A study of Mus musculus with 48 samples.

Results

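The duodenum of C57BL/6J mice was compared between week 4 after birth, when the animals had left the dam and ate chow, and day 0, the day of birth. The comparison used 6 of the 48 samples of a catalogue of mouse small intestine, 3 at each age, chosen by their region and age labels. The other 42 samples, 18 of duodenum at the ages between and 24 of ileum, entered only the estimate of the spread, the medians by age and the contrast with ileum. Each duodenal sample is described as a whole-thickness piece of 2 cm taken next to the pylorus. The mice were of both sexes, bought from Jackson and kept with the dam until day 21. The labels call the housing standard and germ-free, and whether the animals were without microbes is not settled by them. No mutation, transgene or drug is named for either group, and the diet changed from milk to chow between them. The labels number the samples 1 to 3 within each group without naming animals, so p-values measure the spread between these samples.

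The newborn mouse intestine feeds on milk. Its epithelium takes up whole proteins by endocytosis and breaks them down in large lysosomes, burns milk fat, and makes arginine, which milk supplies poorly. Crypts, the pockets that hold stem cells and Paneth cells, form after birth, and at weaning the absorptive cells of the villi turn to sugars, peptides and plant compounds while lymphocytes settle in the epithelium and the tissue below it. The study set out to catalogue gene activity in the small intestine after birth, a period of risk for necrotizing enterocolitis, an inflammatory bowel disease of newborns, and this comparison spans it from birth to after weaning. It was described through 33 lists of cell type markers and 41 lists of pathway genes, together 1008 genes, of which 959 had enough counts to be tested.

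The tissue label was checked against markers before any comparison. Epcam, the adhesion molecule of gut epithelium, stood at 1059.8, 1069 and 1143 CPM at day 0 and 1717, 2515 and 1907 CPM at week 4, where CPM is the count relative to the scaled library size. The muscle wall markers Myh11 and Elavl4 were low in every sample, although the pieces are described as whole-thickness. Summed over 12 smooth muscle genes, the level was 166 to 219 CPM at day 0 and 382 to 440 CPM at week 4. How much muscle wall the pieces held was not tested. Myh11, the myosin heavy chain of smooth muscle, stood at 3.94, 4.84 and 1.69 CPM at day 0 and 3.81, 14.4 and 7.35 CPM at week 4. Elavl4, an RNA-binding protein gene of neurons, stood at 0.25, 0.183 and 0.619 CPM at day 0 and 0.183, 0.417 and 0.212 CPM at week 4. In whole tissue, fewer cells of a type and less RNA per cell cannot be told apart, and this holds for every cell type marker that follows.

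Several properties of the libraries bear on the values. Total counts were 23173093 to 65042327 at day 0 and 34746176 to 46810435 at week 4, with 17.3% to 29.8% and 21.8% to 26.3% of counts from mitochondrial genes. Genes that mark sex were not balanced. All 3 week 4 samples had Xist at 555 to 770 CPM and the Y-linked genes Ddx3y and Eif2s3y at 0, but Uty, also Y-linked, at 56.7, 12.2 and 8.66 CPM. Day 0 sample 1 had Ddx3y at 66.5 CPM and Xist at 4.19, while day 0 samples 2 and 3 had both genes, with Xist at 745 and 813 CPM and Ddx3y at 21.1 and 25. Without day 0 samples 2 and 3, which left 1 day 0 sample, fewer genes were called than the 7846 of the main fit. The fit without 8 other samples, of days 4 and 6, called 10226 genes. Against that count too, fewer were called when day 0 samples 2 and 3 were left out as well. At day 6, sample 3 of each region carried the expression pattern of the other region, which touches the comparison only through the shared spread and the day 6 medians.

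Genes that mark the proximal end of the gut differed within both groups. Pdx1, a transcription factor gene of the duodenum and pancreas, stood at 2.42, 13 and 25 CPM at day 0 and 20.7, 1.81 and 17 CPM at week 4. Day 0 sample 1 and week 4 sample 2 were thus low, below the highest ileum sample of day 0 at 6.53 CPM and of week 4 at 2.92. Tmprss15, which encodes enterokinase, the duodenal activator of trypsin, was lowest in the same samples, at 1.19, 7.57 and 12 CPM at day 0 and 124, 36.4 and 152 CPM at week 4. Slc10a2, the bile acid importer of the ileum, stayed between 0.565 and 1.31 CPM in the 6 samples. The ileum held 2.45 to 5.68 CPM of it at day 0 and a mean of 331 CPM at week 4. Fabp6, another bile acid gene, reached 4.75 CPM in the day 0 duodenum against 22 to 40 CPM in the day 0 ileum. Xpnpep2, an aminopeptidase gene at 232 to 433 CPM in the week 4 ileum, went the other way. Week 4 sample 2 was the highest duodenal sample for it, at 191 CPM. Without day 0 sample 1 and week 4 sample 2, an alternative chosen after seeing these values, 6307 genes were called.

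**Figure D1:**
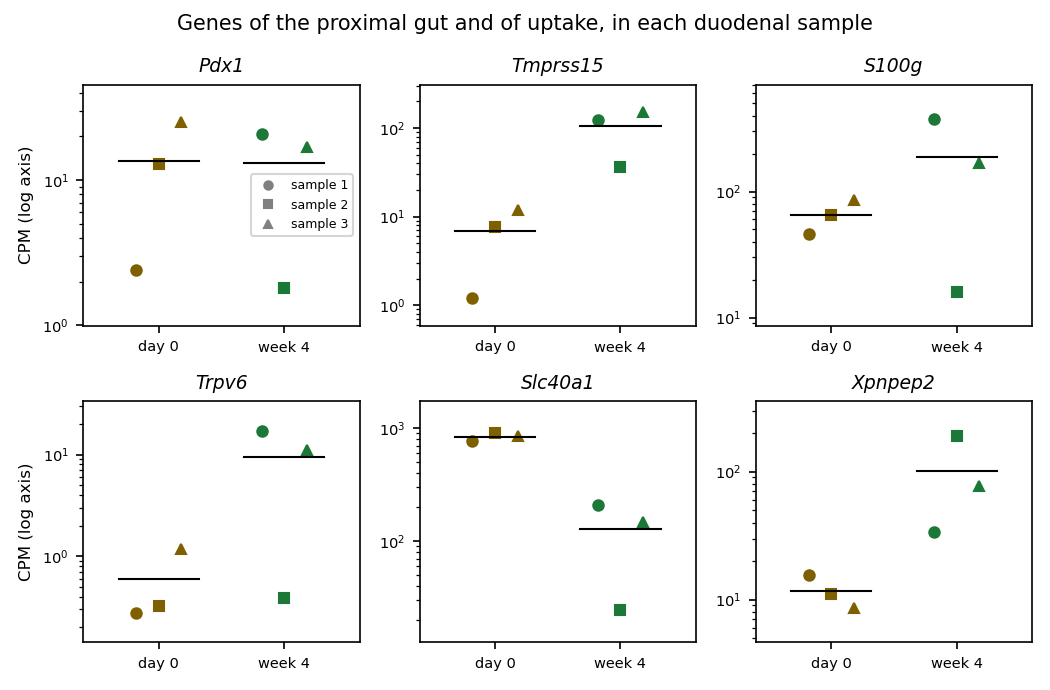
CPM on a log axis of 6 genes in each of the 6 duodenal samples, with a marker shape per sample number and a line at the group mean. Week 4 sample 2 lies below the other week 4 samples for Pdx1, Tmprss15, S100g, Trpv6 and Slc40a1 and above them for Xpnpep2, and day 0 sample 1 is lowest of its group for Pdx1 and Tmprss15.

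Across the 20901 genes tested with edgeR, 37.5% were called at an adjusted p under 0.05. Rises made up 18.4% of the genes tested and falls 19.1%. Rises of over 2-fold made up 11.6% and falls of over 2-fold 13.9%. The samples of the groups did not overlap for 54.2% of genes, with week 4 higher for 26.7% and lower for 27.4%. The median log2 fold change (log2FC, week 4 minus day 0) was -0.01, with quartiles of -0.73 and 0.58. Every count below is to be read against these shares. Lists of neighbouring organs did not move alike. Of 5 stomach genes 0 were called by edgeR, with up to 2 rises in the alternatives, and of 12 genes of pancreatic acinar cells 1 rose, Pnlip, whose groups overlapped, and 1 fell, Ctrb1. Of 3 genes of pancreatic beta cells 2 fell, the insulin genes Ins1 and Ins2. Summed over that list, day 0 samples held 0.75, 3.19 and 7.16 CPM and week 4 samples 0.742 to 1.1, and both calls were lost without day 0 sample 3, week 4 sample 2 or week 4 sample 3, or with only the compared groups in the fit. Of 6 hepatocyte genes 3 fell (Fga, Fgb and Serpina1c) and 1 rose (Tat, not called without week 4 sample 2), and the summed level went from 30.1 to 43.7 CPM at day 0 to 4.17 to 5.37 CPM at week 4. Fga, a chain of fibrinogen, was at 23.9, 27.3 and 18.5 CPM at day 0 and 0 in all week 4 samples, at least 260-fold lower against a floor of 3 counts per library, while Alb, albumin, was not called at 1.22, 0.137 and 0.364 CPM at day 0 and 0.47, 0.111 and 0.424 CPM at week 4.

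**Figure D2:**
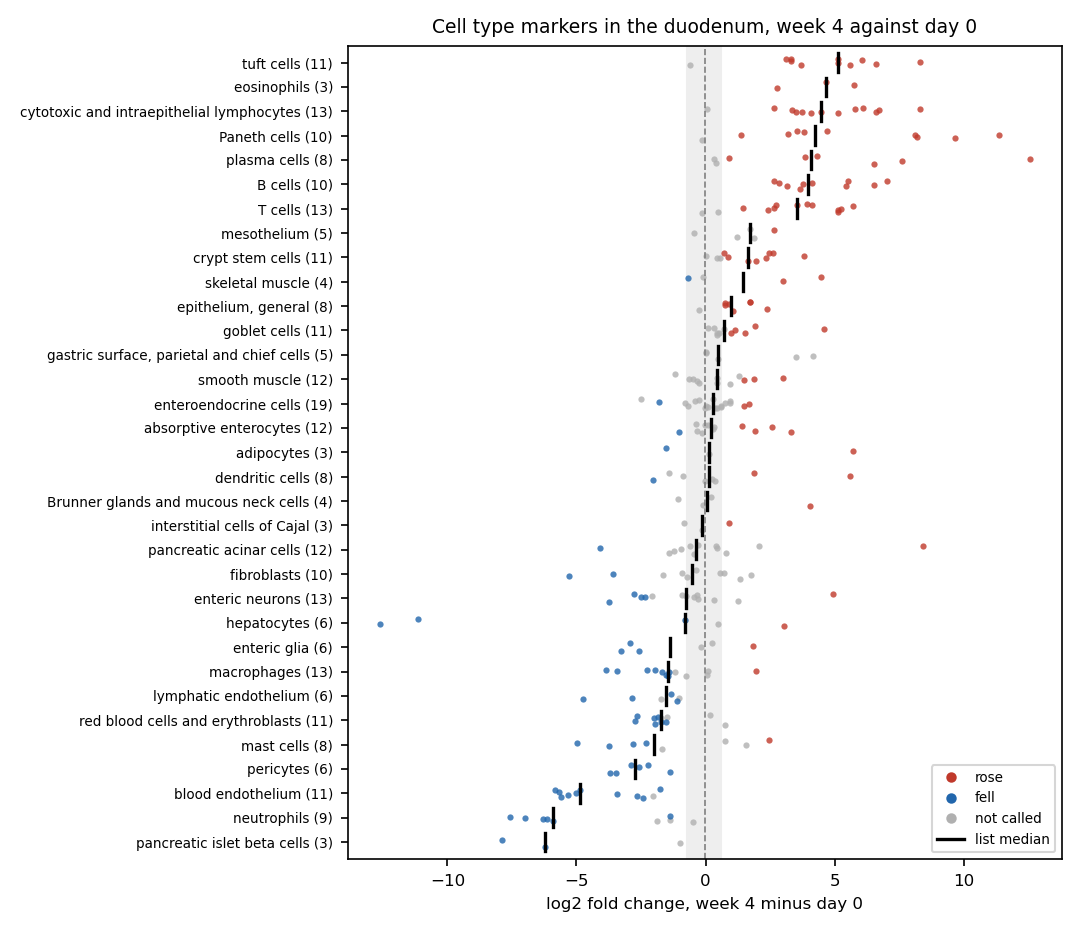
Log2FC of every tested member of the cell type lists with at least 3 tested genes (number in brackets), ordered by the list median, which a black bar marks. The gray band holds the middle quartiles of all genes tested and the dashed line their median. Tuft cell markers have the highest list median, 5.13, and the 3 islet markers the lowest, -6.22.

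Genes of protein uptake by the suckling epithelium were lower at week 4. Of 6 genes of endocytosis, 5 fell and 0 rose, with a median log2FC of -2.79. Dab2 (ENSMUSG00000022150, chr15:6299788-6440712 on the plus strand in GRCm38, the mm10 build), an adaptor that gathers receptors into coated pits, stood at 387, 372 and 287 CPM at day 0 and 0.548, 1.61 and 1.34 CPM at week 4 (log2FC -8.23 ± 0.73 SE, edgeR adjusted p = 2.13e-11). The lowest day 0 sample lay far above the highest week 4 sample. Lrp2, the receptor megalin, fell from 32.3, 26.1 and 14.7 CPM to 0.157, 0.389 and 0.424 CPM (log2FC -6.25 ± 1.27 SE, edgeR adjusted p = 1.68e-04). Its partner Cubn, the receptor cubilin, had the smaller log2FC of -1.56 (edgeR adjusted p = 0.0105), and Amn, which brings cubilin to the membrane, was not called at 95.2, 67 and 39.7 CPM at day 0 and 32.9, 81.1 and 55.4 CPM at week 4. Amn and Cubn were highest at week 4 in sample 2, and 3 members fell without week 4 sample 1, as without day 0 samples 2 and 3.

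The lysosome list fell almost throughout. Of 24 genes, 21 fell and 0 rose, with a median of -1.44. Glb1 (ENSMUSG00000045594, chr9:114401076-114474898 on the plus strand), the lysosomal beta-galactosidase, stood at 1069, 864 and 723 CPM at day 0 and 37, 47.6 and 44.1 CPM at week 4 (log2FC -4.37 ± 0.42 SE, edgeR adjusted p = 1.25e-10). Ctsl, a cysteine protease, went from 1318, 833 and 659 CPM to 27.9, 38.2 and 45.8 CPM (log2FC -4.65 ± 0.61 SE, edgeR adjusted p = 1.01e-07). The groups of both genes were far apart, and the falls of the list were not of one size. Other proteases fell with them: the log2FC was -4.34 for Lgmn, which encodes legumain, -2.75 for Ctsa, -1.26 for Ctsb and -1.14 for Ctsd. Glycosidases included Neu1, a sialidase, and Gusb, a glucuronidase, with log2FC of -3.09 and -2.95. The membrane proteins Lamp1 and Lamp2 fell with log2FC of -0.83 and -0.75, and Psap, the saposin precursor, stayed at 458, 402 and 387 CPM at day 0 and 347, 442 and 428 CPM at week 4. Lamp1 was not called without week 4 sample 1 or without day 0 samples 2 and 3. The letters TCACGTGA, the core of a motif named for lysosomal genes, were found in the promoter window of 2 of the 18 lysosome genes that have one, Ctsa and Ctsd, against 1.12% of all genes with a window.

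Enzymes that finish digestion at the brush border were higher. Of 12 peptidase genes tested, 7 rose and 1 fell, with a median of 1.68. Dpp4, dipeptidyl peptidase 4, stood at 344, 302 and 238 CPM at day 0 and 554, 1376 and 893 CPM at week 4 (log2FC 1.67 ± 0.23 SE, edgeR adjusted p = 2.55e-07). Anpep, aminopeptidase N, rose from 2053, 1860.0 and 1988 CPM to 8771, 15349.7 and 11059 CPM (log2FC 2.58 ± 0.26 SE, edgeR adjusted p = 3.07e-10). Week 4 sample 2 was highest for both, and the groups did not overlap. The exception was Mep1a, the alpha subunit of the metalloprotease meprin, at 479.5, 414 and 361 CPM at day 0 and 69.6, 203 and 109 CPM at week 4 (log2FC -1.72 ± 0.41 SE, edgeR adjusted p = 9.20e-04). Its partner subunit Mep1b rose (log2FC 2.02, edgeR adjusted p = 9.21e-06), so the 2 meprin subunits moved in opposite directions. Tmprss15 rose (log2FC 3.90, edgeR adjusted p = 0.0036), with the low samples given above in both groups.

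Peptide and amino acid carriers rose in part. Of 14 genes, 6 rose and 0 fell, with a median of 0.57. Slc15a1, the peptide transporter PepT1, stood at 139, 159.5 and 148 CPM at day 0 and 531, 1595 and 988 CPM at week 4 (log2FC 2.80 ± 0.36 SE, edgeR adjusted p = 4.80e-08). Slc1a1, a glutamate transporter, rose from 3.25, 3.38 and 3.73 CPM to 43.4, 58 and 52.3 CPM (log2FC 3.89 ± 0.30 SE, edgeR adjusted p = 3.58e-13). Every week 4 sample was more than 10-fold above every day 0 sample for Slc1a1. The cystine and dibasic amino acid pair Slc7a9 and Slc3a1 was not called.

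Genes that take up and use hexoses were higher and part of those that make glucose were lower. All 6 genes of hexose transport and fructose use rose, with a median of 1.66. Khk, ketohexokinase, which starts fructose breakdown, stood at 18.9, 20.5 and 31.6 CPM at day 0 and 195, 220.1 and 209 CPM at week 4 (log2FC 3.13 ± 0.33 SE, edgeR adjusted p = 8.78e-10). Slc2a5, the fructose transporter, rose from 40.8, 49.9 and 44.6 CPM to 167, 218 and 306 CPM, a log2FC of 2.35 (edgeR adjusted p = 1.95e-05). Of 4 disaccharidases 3 rose, with log2FC of 8.03 for Sis, sucrase-isomaltase, 7.65 for Treh, trehalase, and 2.07 for Mgam, maltase-glucoamylase, while Lct, lactase, was not called at 0.01. In gluconeogenesis 3 of 6 genes fell and 1 rose. Fbp1, fructose bisphosphatase, went from 209, 169.6 and 174 CPM to 39, 28.6 and 45.7 CPM (log2FC -2.29 ± 0.30 SE, edgeR adjusted p = 8.62e-08), and Pck1 fell (log2FC -1.88, edgeR adjusted p = 1.15e-04). Pcx, pyruvate carboxylase, rose (log2FC 1.36). Of 14 glycolytic genes 7 rose, among them Hk2, a hexokinase, at 7.97, 10.5 and 7.23 CPM at day 0 and 57, 60.1 and 36.6 CPM at week 4, and Pkm, pyruvate kinase M (log2FC 2.32). The other 2 called genes, Pfkl and Slc2a1, fell, and glycolytic calls numbered 4 rises and 0 falls without day 0 samples 2 and 3.

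Genes that burn fat were lower in part. Of 22 genes of fatty acid oxidation and ketogenesis, 12 fell and 1 rose, with a median of -0.57. Cpt1a, the gate of mitochondrial fatty acid import, fell from 585, 571 and 581 CPM to 182, 161 and 226 CPM (log2FC -1.61 ± 0.17 SE, edgeR adjusted p = 8.84e-10). The 3 samples of each group lay close together for Cpt1a, and the groups did not overlap. Pdk4, which holds pyruvate back from oxidation, fell (log2FC -3.60, edgeR adjusted p = 1.22e-06). Among 19 genes of fat absorption, 4 fell and 3 rose, together 36.8% and close to the share of all genes called. Plin2, a lipid droplet coat protein, went from 402, 461 and 513 CPM to 76.8, 64.1 and 79.8 CPM (log2FC -2.64 ± 0.22 SE, edgeR adjusted p = 1.76e-12). The triglyceride synthases went in opposite directions, with log2FC of -2.35 for Dgat2 and 1.51 for Dgat1, both called. Mttp, which loads fat onto apolipoprotein B, was not called at 6847, 6419 and 5523 CPM at day 0 and 3158, 5658 and 5725 CPM at week 4. Apoa4 fell (log2FC -1.04, edgeR adjusted p = 0.0354), a call lost in 10 of 20 alternatives. Over the same list 7 genes fell with only the compared groups in the fit.

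Of 11 genes of arginine and citrulline metabolism, 6 fell and 2 rose, with a median of -1.09. Among the falls the log2FC was -1.12 for Cps1, carbamoyl phosphate synthetase, -1.60 for Aldh18a1, which makes the proline and ornithine precursor, -7.16 for Ass1 and -2.30 for Asl, argininosuccinate lyase. Arg2 (ENSMUSG00000021125, chr12:79130777-79156301 on the plus strand), a mitochondrial arginase that breaks arginine down, was 1 of the 2 rises and stood at 0.333, 1.6 and 3.04 CPM at day 0 and 464, 344 and 457 CPM at week 4 (log2FC 7.94 ± 0.89 SE, edgeR adjusted p = 6.97e-09). Its lowest week 4 sample was far above its highest day 0 sample. The other rise was Otc, which makes citrulline, and it went from 65.9, 68.7 and 65.7 CPM to 153, 129 and 149 CPM (log2FC 1.10 ± 0.25 SE, edgeR adjusted p = 4.47e-04).

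Genes that metabolise drugs and plant compounds were much higher. Of 17 cytochrome P450 and esterase genes, 13 rose and 1 fell, with a median of 3.32. Cyp3a11 (ENSMUSG00000056035, chr5:145854426-145879964 on the minus strand), a major drug-oxidising P450, stood at 0.167, 0.274 and 0.437 CPM at day 0 and 1121, 1301 and 1417 CPM at week 4 (log2FC 12 ± 1.16 SE, edgeR adjusted p = 2.35e-10). Cyp2b10 stood at 0, 0.228 and 0.0728 CPM at day 0 and 350.4, 345 and 471 CPM at week 4 (log2FC 12.16 ± 1.21 SE, edgeR adjusted p = 3.09e-09). Both genes were close to 0 in every day 0 sample and far above it in every week 4 sample. Reads of near-identical Cyp3a and Cyp2 family members could be shared between them by the authors' model-based counting. The carboxylesterases Ces2a and Ces2c rose (log2FC 5.40 and 6.29, edgeR adjusted p = 4.59e-13 and 7.24e-12). Cyp1a1, which answers to the aryl hydrocarbon receptor, was at 0 in all day 0 samples and at 10.7, 1.53 and 4.06 CPM at week 4, at least 59.3-fold higher against a floor of 3 counts per library. The nuclear receptors of these genes did not rise with them: Nr1i2, the pregnane X receptor, fell (log2FC -0.43, edgeR adjusted p = 0.0345) with overlapping groups, a call lost in 7 of 20 alternatives, and Nr1i3 and Ahr were not called. Conjugation and efflux genes rose in 10 of 16 and fell in 3. Gsta1, a glutathione transferase, stood at 24.3, 30.1 and 24.1 CPM at day 0 and 336, 130.0 and 253 CPM at week 4 (log2FC 3.20 ± 0.53 SE, edgeR adjusted p = 8.24e-06), with week 4 sample 2 lowest. Sult2b1, a sulfotransferase, rose (log2FC 3.52), while Sult1d1 fell (log2FC -1.09, edgeR adjusted p = 1.29e-13 and 2.73e-04). Conjugation falls numbered 1 without day 0 sample 1.

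Mineral and bile handling changed gene by gene. Of 8 iron genes 5 fell and 2 rose. Hmox1, heme oxygenase, stood at 146, 67.5 and 55.2 CPM at day 0 and 0.678, 0.862 and 0.671 CPM at week 4 (log2FC -6.91 ± 0.70 SE, edgeR adjusted p = 5.26e-10). Slc40a1, the iron exporter ferroportin, went from 764, 904 and 843 CPM to 208, 24.4 and 148 CPM (log2FC -2.72 ± 0.49 SE, edgeR adjusted p = 2.25e-05). Week 4 sample 2 was lowest for Slc40a1 by over 5-fold, and all week 4 samples were below all day 0 samples. Tfrc, the transferrin receptor of the basal side, rose (log2FC 1.36). Vdr, the vitamin D receptor, stood at 20.4, 18.7 and 25.3 CPM at day 0 and 315, 339 and 359 CPM at week 4 (log2FC 3.97 ± 0.28 SE, edgeR adjusted p = 4.71e-14). S100g, the calcium carrier calbindin-D9k, was not called at 45.8, 65.1 and 85.7 CPM at day 0 and 377, 16.1 and 169.9 CPM at week 4 (edgeR adjusted p = 0.0694). It was called without week 4 sample 2. Trpv6, the apical calcium channel, rose (log2FC 3.93, edgeR adjusted p = 0.00289) although its week 4 sample 2 lay among the day 0 samples. Among 10 bile acid and sterol genes, 4 fell and 3 rose. Nr1h4, the bile acid receptor FXR, fell from 168, 178 and 171 CPM to 30.5, 30.1 and 26.8 CPM (log2FC -2.56 ± 0.27 SE, edgeR adjusted p = 1.19e-09), and Npc1l1, the cholesterol importer, rose (log2FC 1.51). The bile and sterol counts were 1 rise and 2 falls without day 0 samples 2 and 3.

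The epithelial surface also changed in its junctions and glycans. Of 15 tight junction genes 6 rose and 4 fell. Cldn15, a claudin that forms sodium pores, stood at 32.1, 37.9 and 57.4 CPM at day 0 and 394, 502 and 496 CPM at week 4 (log2FC 3.45 ± 0.41 SE, edgeR adjusted p = 1.50e-08), and Cldn2, another pore claudin, fell from 503, 591 and 646 CPM to 157, 92.2 and 133 CPM (log2FC -2.19 ± 0.24 SE, edgeR adjusted p = 2.46e-09). Cldn8 and Cldn1, sealing claudins, fell with log2FC of -5.93 and -6.67. For each of these 4 claudins the groups did not overlap. Among 14 fucosyl and sialyl transferases, 5 rose and 4 fell. Fut8, which adds core fucose, stood at 8.8, 8.81 and 10.4 CPM at day 0 and 95.4, 89 and 97.3 CPM at week 4 (log2FC 3.33 ± 0.20 SE, edgeR adjusted p = 6.71e-16), and St3gal5, which makes the ganglioside GM3, went from 54, 57.9 and 69 CPM to 0.339, 1.2 and 0.247 CPM (log2FC -6.63 ± 0.53 SE, edgeR adjusted p = 1.31e-12). Slc26a6, a chloride and bicarbonate exchanger, led the 5 of 11 ion transport genes that rose (log2FC 3.07, edgeR adjusted p = 2.06e-09). Ion transport rises numbered 3 without day 0 sample 2, day 0 sample 3 or week 4 sample 3, and without day 0 samples 2 and 3 together, 2.

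**Figure D3:**
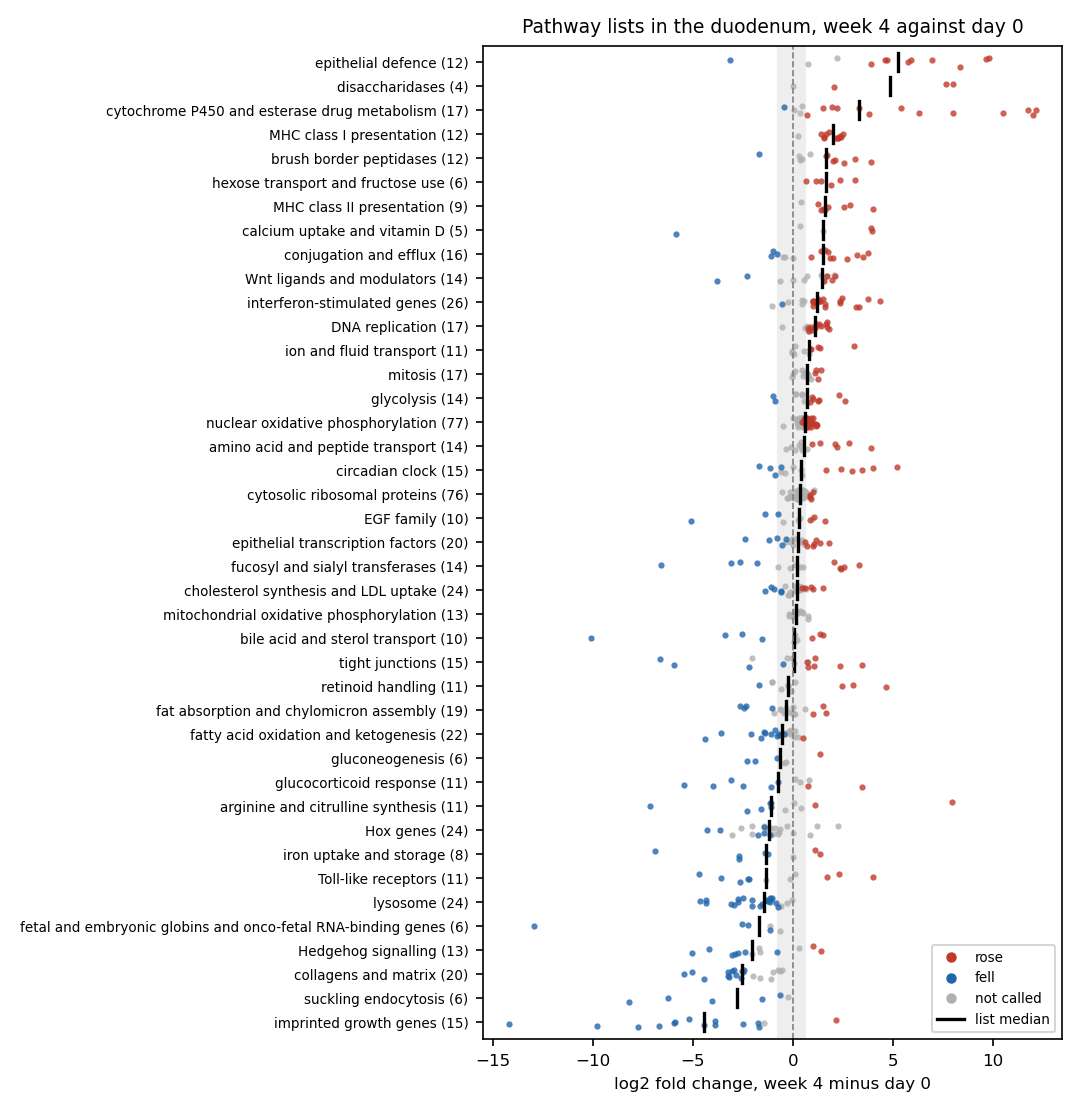
Log2FC of every tested member of the pathway lists with at least 3 tested genes (number in brackets), drawn as in the plot of cell type lists. Epithelial defence has the highest median, 5.24, and imprinted growth genes the lowest, -4.46. Lists such as glycan transferases and clock genes hold members far to both sides of a median near 0.

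General epithelial markers and those of crypts rose, and those of absorptive cells in smaller part. Of 8 general epithelial genes 7 rose, with a median of 0.97, and their summed level went from 3979 to 4116 CPM at day 0 to 7166 to 9610 CPM at week 4. Absorptive enterocyte genes rose in 4 of 12 and fell in 1, together 41.7%, and their summed level overlapped between the groups, at 51166 to 59703 CPM at day 0 and 43852 to 70824 CPM at week 4. Vil1, the actin bundler villin, and Krt20, a keratin of villus cells, were among the rises (log2FC 1.40 and 3.32). Stem cell genes rose in 8 of 11, with a median of 1.65. Ascl2, a transcription factor of crypt base stem cells, stood at 0.222, 0.274 and 0.51 CPM at day 0 and 6.5, 2.92 and 5.62 CPM at week 4 (log2FC 3.82 ± 0.50 SE, edgeR adjusted p = 1.05e-07). Smoc2, a matricellular protein gene of the same cells, rose from 8.17, 9.22 and 14.1 CPM to 71.3, 56.4 and 67 CPM (log2FC 2.62 ± 0.42 SE, edgeR adjusted p = 4.73e-06). Every week 4 sample exceeded every day 0 sample for both. Axin2, a target of Wnt signalling, rose (log2FC 2.34, edgeR adjusted p = 3.41e-10).

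Secretory lineages did not move alike. Paneth cell genes rose in 9 of 10 with a median of 4.25, among them Defa30, an alpha-defensin, at 0.361, 0.319 and 0.31 CPM at day 0 and 406, 220.3 and 179.7 CPM at week 4 (log2FC 9.66 ± 0.49 SE, edgeR adjusted p = 7.55e-18). Reads of alpha-defensins can be split between near-identical copies, so the value of any one of them is uncertain. Mmp7, the protease that activates defensins, stood at 5.89, 4.29 and 3.82 CPM at day 0 and 52.2, 64.4 and 45 CPM at week 4 (log2FC 3.53 ± 0.34 SE, edgeR adjusted p = 1.01e-10). Tuft cell genes, of chemosensory cells, rose in 10 of 11 with a median of 5.13. Dclk1, a kinase of tuft cells, went from 0.444, 0.502 and 0.728 CPM to 15.5, 21.7 and 23.1 CPM (log2FC 5.13 ± 0.71 SE, edgeR adjusted p = 3.16e-07). Pou2f3, their master transcription factor, went from 0.111, 0.0456 and 0.0364 CPM to 4.72, 5.26 and 3.25 CPM (log2FC 6.04 ± 0.66 SE, edgeR adjusted p = 1.87e-09). The tested tuft gene that was not called was Ptgs1. Goblet cell genes rose in 5 of 11, with Muc2, the main gel mucin, not called at 293, 259.7 and 194 CPM at day 0 and 207, 603 and 421 CPM at week 4, and Zg16, a mucus lectin, higher (log2FC 4.57, edgeR adjusted p = 4.73e-06). Of 19 enteroendocrine genes, 2 rose (Gcg with a log2FC of 1.66 and Tac1 of 1.48) and 1 fell (Pyy, log2FC -1.81). Hormones of the proximal gut such as Gip and Cck were not called (edgeR adjusted p = 0.175 and 0.343). Over the alternatives, enteroendocrine rises ranged from 2 to 8.

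Genes of DNA replication were higher at week 4, while the rises among mitosis genes were near the share of all genes. Of 17 DNA replication genes 13 rose and 0 fell, with a median of 1.12, and Cdc6, which licenses origins, stood at 3.81, 2.56 and 2.57 CPM at day 0 and 12.1, 8.48 and 10.2 CPM at week 4 (log2FC 1.78 ± 0.44 SE, edgeR adjusted p = 0.00127). Of 17 mitosis genes 4 rose (23.5%, against 18.4% of all genes tested) and 0 fell. Top2a rose with a log2FC of 1.40. Mki67 was not called at 138, 127 and 162 CPM at day 0 and 310.0, 202 and 230.3 CPM at week 4. Week 4 sample 2 was the lowest week 4 sample for Cdc6, Top2a and Mki67. The calls of both lists were lost in the fit without day 0 samples 2 and 3, which left 1 day 0 sample. Cdc6 and Top2a kept theirs when the 8 samples of days 4 and 6 were left out as well. Rises numbered 6 and 2 without week 4 sample 1. Leaving out day 0 sample 1 or sample 2 left 8 replication genes, and mitosis ranged up to 14 rises in the alternatives.

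Lymphocyte genes were close to 0 at birth, with exceptions, and higher at week 4. T cell genes rose in 11 of 13 (median 3.52), genes of cytotoxic and intraepithelial lymphocytes in 12 of 13 (4.49), B cell genes in 10 of 10 (3.96) and plasma cell genes in 6 of 8 (4.09). Gzmb (ENSMUSG00000015437, chr14:56258838-56262260 on the minus strand), a protease of killer lymphocytes, stood at 0.0556, 0 and 0.346 CPM at day 0 and 61.5, 44.8 and 54 CPM at week 4 (log2FC 8.29 ± 0.73 SE, edgeR adjusted p = 1.07e-11). Cd3g, a chain of the T cell receptor complex, went from 0.278, 0.183 and 0.51 CPM to 24, 14.3 and 15.4 CPM (log2FC 5.70 ± 0.68 SE, edgeR adjusted p = 1.31e-08). Summed over the cytotoxic list, day 0 samples held 3.64 to 7.41 CPM and week 4 samples 195 to 313. The plasma cell list as a whole was not near 0 at birth. Its sum was 170 to 184 CPM at day 0 and 260 to 346 CPM at week 4. Igha, the constant region of immunoglobulin A, was at 0 in all day 0 samples and at 12.3, 22.9 and 31.4 CPM at week 4, at least 243-fold higher against a floor of 3 counts per library. Cd79a, a chain of the B cell receptor complex, went from 0.111, 0.183 and 0.146 CPM to 6.5, 7.29 and 5.3 CPM (log2FC 5.44 ± 0.94 SE, edgeR adjusted p = 1.46e-05). Trac, the constant region of the T cell receptor alpha chain, did not follow the list and stood at 4.69, 5.02 and 5.32 CPM at day 0 and 5.48, 3.67 and 4.66 CPM at week 4. Il7r was the other T cell gene not called. Over the alternatives the T cell rises ranged from 9 to 11, the cytotoxic from 10 to 12, the B cell from 9 to 10 and the plasma cell from 4 to 7.

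Macrophage, neutrophil and red cell markers were lower in larger part, while eosinophil markers were higher. Of 13 macrophage genes 8 fell and 1 rose. Csf1r, the receptor that keeps macrophages alive, stood at 113, 77.8 and 80.9 CPM at day 0 and 4.46, 6.62 and 7.63 CPM at week 4 (log2FC -3.86 ± 0.42 SE, edgeR adjusted p = 1.65e-09). The C1q genes C1qb and C1qc fell with log2FC of -1.68 and -1.46, and Cd14, a co-receptor for endotoxin, rose (log2FC 1.95, edgeR adjusted p = 0.00386). Neutrophil genes fell in 6 of 9, S100a8 from 1.39, 3.92 and 8.83 CPM to 0.0783, 0.139 and 0 CPM (log2FC -5.89 ± 0.97 SE, edgeR adjusted p = 6.62e-06). Of 7 eosinophil genes the 3 with enough counts to be tested rose, among them Siglecf, a lectin receptor that tuft cells also carry, from 0.222, 0.274 and 0.455 CPM to 6.92, 10 and 8.09 CPM (log2FC 4.66 ± 0.45 SE, edgeR adjusted p = 1.38e-10). The granule gene Epx, eosinophil peroxidase, had too few counts to be tested, at 0.0556, 0.0456 and 0.109 CPM at day 0 and 0.0261, 0 and 0 CPM at week 4. Tuft cell genes rose as given above, and their part in this rise was not tested. Dendritic cell genes rose in 2 of 8, Ccr7 and Siglech, and fell in 1, Zbtb46 (log2FC -2.03), which is the share of all genes called. Red cell genes fell in 7 of 11, but the groups overlapped for 6 of these, and Hba-a2 stood at 226, 402 and 789 CPM at day 0 and 47.9, 259 and 119.6 CPM at week 4. The hemoglobin genes are near-identical pairs. Day 0 sample 3 was highest and sample 1 lowest of its group for S100a8, Hba-a2 and the mast cell gene Cpa3, at 0.222, 2.6 and 5.74 CPM at day 0 and 0.418, 0.584 and 0.212 CPM at week 4. Leaving out day 0 sample 3, macrophage falls numbered 4, red cell falls 0 and mast cell falls 2 instead of 4. Without week 4 sample 1 the macrophage and red cell falls numbered 5 and 1, without day 0 samples 2 and 3 together 2 and 0, and without day 0 sample 2 or week 4 sample 3 red cell falls numbered 3 and 2.

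Antimicrobial genes of the epithelium rose, and Toll-like receptors went both ways. Of 12 defence genes 9 rose and 1 fell, with a median of 5.24. Reg3b, a lectin that binds bacteria, stood at 4.11, 11.6 and 15.7 CPM at day 0 and 1177, 5272 and 3826 CPM at week 4 (log2FC 8.35 ± 0.85 SE, edgeR adjusted p = 4.79e-10). Reg3a went from 0.0833, 0.137 and 0.109 CPM to 69.9, 89.3 and 107 CPM (log2FC 9.65 ± 0.60 SE, edgeR adjusted p = 2.02e-15). Duox2 and Nos2, which make hydrogen peroxide and nitric oxide, were unequal within week 4, at 10.4, 149 and 16.5 and 0.574, 40.5 and 1.8 CPM, with sample 2 by far the highest. Over the alternatives, 7 to 10 defence genes rose. Pigr, which carries immunoglobulin A into the lumen, rose from 256, 338 and 560.4 CPM to 5029.7, 6523 and 5693 CPM (log2FC 3.90 ± 0.58 SE, edgeR adjusted p = 1.04e-06). The defence gene that fell was Lcn2, an iron-trapping protein also made by neutrophils (log2FC -3.16, edgeR adjusted p = 1.41e-04). Toll-like receptors divided into 3 that rose and 5 that fell. Tlr3, the receptor for double-stranded RNA, stood at 3.42, 3.24 and 3.35 CPM at day 0 and 48.4, 55.7 and 58.4 CPM at week 4 (log2FC 4.02 ± 0.43 SE, edgeR adjusted p = 1.14e-09), while Tlr5, for flagellin, fell (log2FC -4.71) and Tlr4, for endotoxin, likewise (log2FC -2.63). Tlr7, Tlr8 and Tlr13 fell as macrophage genes did, whose part in these falls was not tested, and without day 0 samples 2 and 3 the falls numbered 1.

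**Figure D4:**
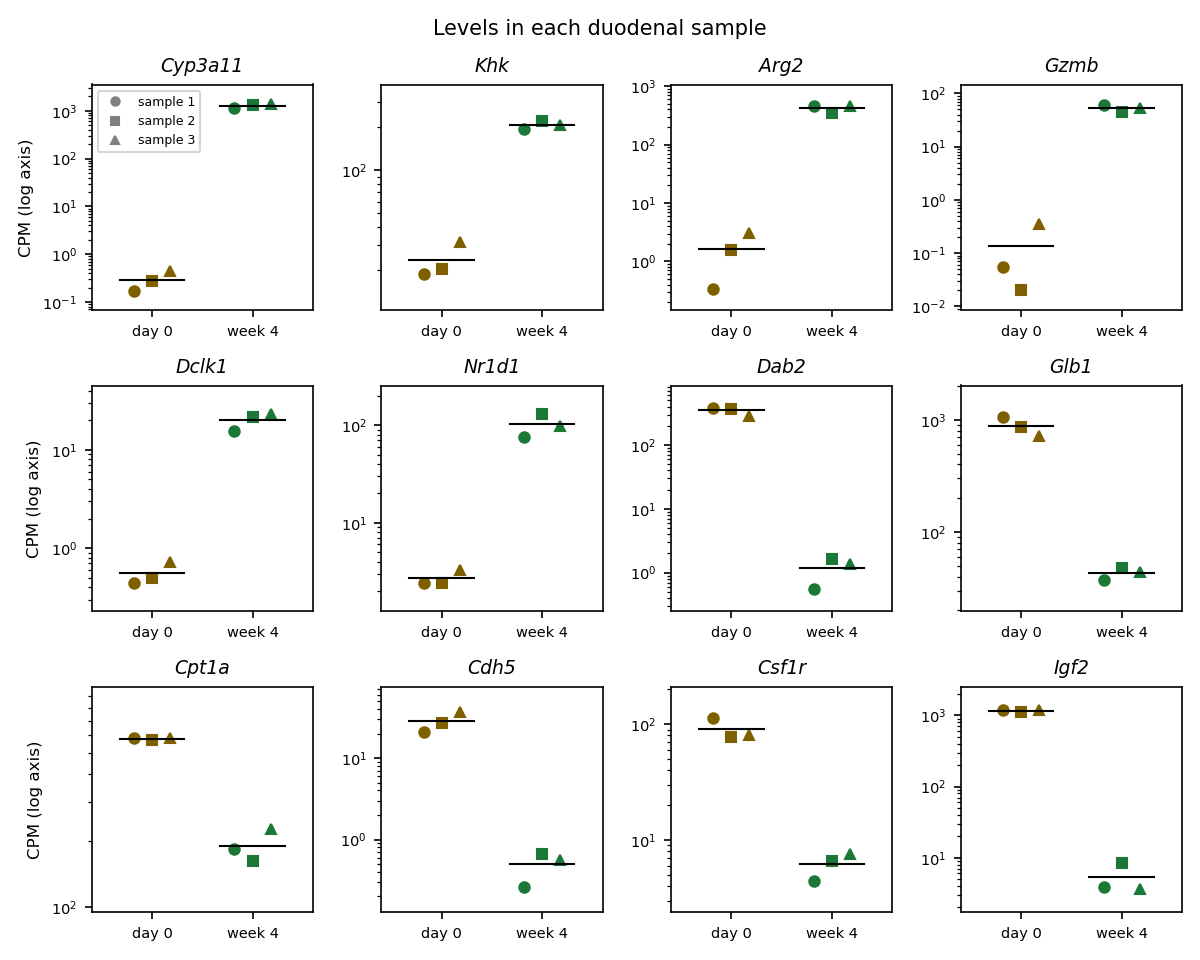
CPM on a log axis of 12 genes in each of the 6 duodenal samples, with a marker shape per sample number and a line at the group mean. A value of 0 (Gzmb, day 0 sample 2) is drawn at 0.02. In every panel the 3 week 4 samples lie apart from the 3 day 0 samples, as they do for 54.2% of all genes tested. The naming rule required this of part of the genes shown.

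Interferon-stimulated genes, which answer viral and microbial signals, rose in 20 of 26 with a median of 1.23, and 1 fell. Oas2, a sensor of double-stranded RNA, stood at 2.75, 2.05 and 3.15 CPM at day 0 and 55.1, 55.6 and 56.2 CPM at week 4 (log2FC 4.38 ± 0.54 SE, edgeR adjusted p = 2.70e-08). Isg15, a ubiquitin-like protein, went from 16.9, 10.1 and 10.4 CPM to 113, 103 and 120.5 CPM (log2FC 3.17 ± 0.41 SE, edgeR adjusted p = 6.58e-08). Zbp1, a sensor of nucleic acids, went from 9.22, 7.3 and 11 CPM to 113, 129 and 129 CPM (log2FC 3.75 ± 0.33 SE, edgeR adjusted p = 1.14e-11). All 3 genes kept the samples apart, and the week 4 samples were close to one another. Irf9, a subunit of the interferon-responsive factor ISGF3, fell (log2FC -0.56, edgeR adjusted p = 0.0123), a call lost in 3 of 20 alternatives, among them the fit without day 0 sample 3. Rsad2, Ifit2, Ifit3, Stat2 and Rtp4 were not called. The rises numbered 7 without day 0 samples 2 and 3.

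The promoters of these genes are shown because their members moved together. The letters searched on either strand were GAAA, then any 2 bases, then GAAA, the repeat known as the interferon-stimulated response element, within windows of 250 bases before to 50 after a start, from RefSeq on GRCm38.p6. Of 26 interferon-stimulated genes 18 had a window, and 11 of these (61.1%) held the letters, against 3.99% of the 27025 genes with a window. Of these 11 genes 8 rose, and of all 26 members 20 rose. The list is of genes known to answer interferon, so its share of the letters does not bear on the rises. Stretches of 60 bases before the start follow, 5′ to 3′ on the strand of the gene, with matches on either strand in capitals. Isg15, Oas1a and Ifit1 rose, and Rsad2 was not called.
Isg15: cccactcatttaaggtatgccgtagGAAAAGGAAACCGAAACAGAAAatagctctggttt
Oas1a: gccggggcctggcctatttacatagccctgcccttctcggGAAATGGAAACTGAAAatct
Ifit1: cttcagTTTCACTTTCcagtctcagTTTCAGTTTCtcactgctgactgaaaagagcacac
Rsad2: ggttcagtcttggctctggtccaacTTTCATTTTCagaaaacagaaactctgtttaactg
They lie at chr4:156200862-156200921 on the minus strand, chr5:120907526-120907585 on the minus strand, chr19:34640779-34640838 on the plus strand and chr12:26456538-26456597 on the minus strand. Isg15 holds overlapping copies and Ifit1 separate ones, and Rsad2 holds a match without having passed the test.

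Antigen presentation rose through both classes. MHC class I genes rose in 11 of 12 with a median of 1.99. B2m, the light chain of class I, stood at 571, 632 and 732 CPM at day 0 and 1562, 1739.8 and 1901 CPM at week 4 (log2FC 1.43 ± 0.22 SE, edgeR adjusted p = 1.33e-06), and Tap2, a peptide pump, rose from 13.1, 11.8 and 14.7 CPM to 55.5, 87.8 and 79.6 CPM (log2FC 2.49 ± 0.24 SE, edgeR adjusted p = 1.47e-10). The immunoproteasome subunits Psmb8, Psmb9 and Psmb10 rose with log2FC of 2.33, 2.28 and 1.83. Of 10 class I genes with a promoter window 3 held the same letters, and that of B2m is given at chr2:122147523-122147582 on the plus strand.
B2m: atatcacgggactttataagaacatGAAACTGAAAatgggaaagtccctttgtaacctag
Class II genes rose in 8 of 9 with a median of 1.58. Ciita, their master regulator, stood at 0.583, 0.958 and 1.29 CPM at day 0 and 4.62, 8.51 and 7.45 CPM at week 4 (log2FC 2.84 ± 0.45 SE, edgeR adjusted p = 2.70e-06), and Cd74, the invariant chain, at 11.6, 19.6 and 31.7 CPM at day 0 and 49.9, 80.4 and 58.7 CPM at week 4 (log2FC 1.58 ± 0.51 SE, edgeR adjusted p = 0.0125). The call of Cd74 was lost without day 0 sample 1, without week 4 sample 2 and without both, with an edgeR adjusted p of up to 0.167. B cell genes rose with the class II list, and their part in it was not tested. Class II rises numbered 5 without day 0 sample 1, and 4 without it and week 4 sample 2.

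Genes of vessels and of the supporting tissue around them were lower at week 4. Blood endothelial genes fell in 10 of 11 with a median of -4.88, and all 11 had every week 4 sample below every day 0 sample. Cdh5 (ENSMUSG00000031871, chr8:104101625-104144511 on the plus strand), the adhesion molecule of endothelial junctions, stood at 20.9, 26.8 and 36.9 CPM at day 0 and 0.261, 0.668 and 0.565 CPM at week 4 (log2FC -5.83 ± 0.79 SE, edgeR adjusted p = 2.17e-07). Kdr, a receptor for vascular growth factor, went from 37, 61 and 79.8 CPM to 1.04, 1.39 and 0.989 CPM (log2FC -5.69 ± 0.75 SE, edgeR adjusted p = 1.55e-07). Summed over the list the level was 166 to 340 CPM at day 0 and 15.5 to 15.8 CPM at week 4. The receptors Tek, Tie1 and Flt1 fell with log2FC of -3.44, -5.02 and -5.32, and Pecam1, which blood cells also carry, with -2.44. Pericyte genes fell in 6 of 6 with a median of -2.74, among them Abcc9, a channel subunit (log2FC -3.70). Lymphatic genes fell in 4 of 6, Lyve1 with a log2FC of -1.36. Blood endothelial falls numbered 9 without day 0 samples 2 and 3, pericyte falls 3 and lymphatic falls 2.

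Matrix genes fell in part, and no smooth muscle gene was called as falling in the main fit. Of 20 collagen and matrix genes 13 fell and 0 rose, with a median of -2.56. Col4a1, a chain of basement membranes, stood at 175, 229 and 379 CPM at day 0 and 2.87, 9.12 and 5.58 CPM at week 4 (log2FC -5.48 ± 0.77 SE, edgeR adjusted p = 5.94e-07). Col1a1, a chain of fibrous collagen, was not called at 17.4, 18.3 and 25.1 CPM at day 0 and 5.51, 19.2 and 11.6 CPM at week 4, with week 4 sample 2 at the day 0 level. Pdgfra, a receptor of gut fibroblasts, went from 32.9, 44.1 and 54.4 CPM to 1.57, 1.03 and 0.742 CPM (log2FC -5.28 ± 0.90 SE, edgeR adjusted p = 1.28e-05), 1 of the 2 fibroblast genes of 10 that fell; the other was Cd34, which endothelium also carries. Smooth muscle genes rose in 3 of 12, among them Mylk, a myosin kinase (log2FC 1.48), and fell in 0. Their rises numbered 1 without day 0 sample 1, day 0 sample 3 or week 4 sample 2. Their falls numbered 1 with only the compared groups or with the sex covariate, and 2 with limma. Leaving out day 6 sample 3 of both regions, or the 8 samples without a normalized column, also gave 1 fall. Of 13 hedgehog genes, which carry signals from the epithelium to the tissue below, 7 fell, 2 rose and 4 were not called. Ihh, the main ligand of the epithelium, was not called at 32.1, 32.8 and 44.2 CPM at day 0 and 39.3, 55.9 and 41.2 CPM at week 4. Among genes known as mesenchymal targets, falls had log2FC of -3.03 for Foxf1, -5.04 for Foxl1, -0.79 for Ptch1 and -2.73 for Bmp4, and Gli1 was not called (log2FC -1.68, edgeR adjusted p = 0.144). The rises were Smo, the signal transducer, and Shh, another ligand, with log2FC of 0.98 and 1.38 (edgeR adjusted p = 0.00682 and 0.032), and 1 rise was left without day 0 sample 1, day 0 sample 2 or week 4 sample 1. Enteric neuron genes fell in 4 of 13, Ret from 39.2, 29.8 and 25.7 CPM to 2.87, 8.73 and 5.16 CPM (log2FC -2.50 ± 0.47 SE, edgeR adjusted p = 4.85e-05), and glial genes in 3 of 6. Neuron falls numbered 2 without week 4 sample 1.

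Transcript length and epithelial share moved with these falls. The median log2FC went from 0.20 in the tenth of genes with the shortest transcripts to -0.28 in the tenth with the longest, and from 0.19 to 0.08 in the ileum. The general epithelial sum rose, as given above. The part of either in the stromal falls was not tested. Matrix falls numbered 5 and hedgehog falls 3, with both hedgehog rises lost, without day 0 samples 2 and 3, and without week 4 sample 1 hedgehog falls numbered 4.

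Genes of fetal growth had the lowest median of the pathway lists. Of 15 imprinted growth genes, active from 1 parental copy, 13 fell and 1 rose, with a median of -4.46. Igf2, insulin-like growth factor 2, stood at 1192, 1115 and 1190.0 CPM at day 0 and 3.86, 8.37 and 3.64 CPM at week 4 (log2FC -7.78 ± 0.63 SE, edgeR adjusted p = 1.73e-12). Plagl1, a transcription factor of the same group, went from 340.3, 277 and 269.7 CPM to 0.183, 0.445 and 0.353 CPM (log2FC -9.82 ± 0.68 SE, edgeR adjusted p = 3.52e-14). Cdkn1c, a brake on the cell cycle, and Grb10, a brake on insulin signalling, fell as well (log2FC -5.95 and -5.90, edgeR adjusted p = 2.29e-15 and 2.89e-15). Growth factors and growth inhibitors were both among the falls. The rise was Phlda2, a low gene at 0.111, 0.0913 and 0.0364 CPM at day 0 and 0.391, 0.223 and 0.424 CPM at week 4, and it was lost in 11 of 20 alternatives. Igf2bp1, an RNA-binding protein of the fetus, was at 31.2, 30 and 26.8 CPM at day 0 and 0 in all week 4 samples, at least 329-fold lower against a floor of 3 counts per library. Its relatives Igf2bp2 and Igf2bp3 fell with log2FC of -1.14 and -2.23 and stayed detected.

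Stress hormone and clock genes changed with sharp contrasts inside each list. Of 11 glucocorticoid response genes 6 fell and 2 rose. Fkbp5, a target of the glucocorticoid receptor, stood at 86, 214 and 286 CPM at day 0 and 14.7, 9.1 and 13.1 CPM at week 4 (log2FC -3.99 ± 0.41 SE, edgeR adjusted p = 3.90e-10), and Zbtb16, another target, fell (log2FC -5.48). Both varied over 3-fold within day 0, with sample 1 lowest. Nr3c1, the receptor itself, rose (log2FC 0.78, edgeR adjusted p = 0.00277). Of 15 clock genes 6 rose and 4 fell. Nr1d1 (ENSMUSG00000020889, chr11:98767932-98775333 on the minus strand), the repressor REV-ERB alpha, stood at 2.44, 2.42 and 3.3 CPM at day 0 and 76.1, 131 and 98.5 CPM at week 4 (log2FC 5.21 ± 0.29 SE, edgeR adjusted p = 1.06e-16). Dbp, a clock output factor, went from 2.08, 1.6 and 1.97 CPM to 23, 27.9 and 39.6 CPM (log2FC 3.99 ± 0.32 SE, edgeR adjusted p = 8.15e-13), and Per3 rose (log2FC 2.41). Per1 fell (log2FC -1.72), as did Nfil3, which opposes Dbp (log2FC -1.15). Arntl, the core activator, was not called (edgeR adjusted p = 0.0615), although 8 of 20 alternatives called it. Without week 4 sample 1, 2 clock genes fell. The hour of collection is not given in the labels, and hour and age cannot be told apart. The letters CACGTG stood in the promoter windows of 4 of 14 clock genes and of 8.09% of all genes.

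Transcription factors of the epithelium went both ways, and part of the respiratory chain genes rose. Of 20 epithelial factors 7 rose and 5 fell. Hnf4a, a driver of enterocyte genes, stood at 370.5, 343 and 355 CPM at day 0 and 693, 860.3 and 866 CPM at week 4 (log2FC 1.18 ± 0.18 SE, edgeR adjusted p = 1.75e-06). Leaving out day 0 sample 1 or week 4 sample 2 left 3 falls. Klf4, a factor of differentiated cells, rose (log2FC 1.79). Prdm1 fell (log2FC -2.39). Nuclear genes of oxidative phosphorylation rose in 40 of 77, with a median of 0.59, and 0 of the 13 mitochondrially encoded ones were called. Cytosolic ribosomal protein genes were called in 4 of 76. The nuclear count was 13 without day 0 samples 2 and 3, 19 without week 4 sample 1, 23 and 21 without day 0 samples 1 and 2, and 65 without the 8 samples that lack a column in the authors' normalized tables. The ribosomal count went from 0 to 43 over the alternatives.

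The ages between show when the lists moved. All share the day 0 samples, so the medians are given side by side. The P450 and esterase list had a median of -0.37 at week 2, 2.87 at week 3 and 3.32 at week 4. The endocytosis list stood at -0.58, -2.55 and -2.79 at those ages. Epithelial defence, in contrast, stood at 0.23 at week 2 and 0.80 at week 3 before 5.24 at week 4, and cytotoxic lymphocytes at 0.86, 1.44 and 4.49. Interferon-stimulated genes were below day 0 at week 3, at -1.89, and above it at week 4, at 1.23. The endothelial list stood at -0.27, -2.30, -1.84 and -4.02 on days 2, 4, 6 and 8, and at -2.33, -2.23 and -4.88 in weeks 2, 3 and 4. The stem cell list peaked at day 8, at 2.85, and DNA replication at 2.53. The stomach list stood between 5.85 and 7.68 at every age from day 2 to week 3 and at 0.48 at week 4, so the samples between held more stomach transcripts than the 6 compared here, and the part of this in the medians was not tested. Day 6 medians include the sample that carried the ileal pattern.

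**Figure D5:**
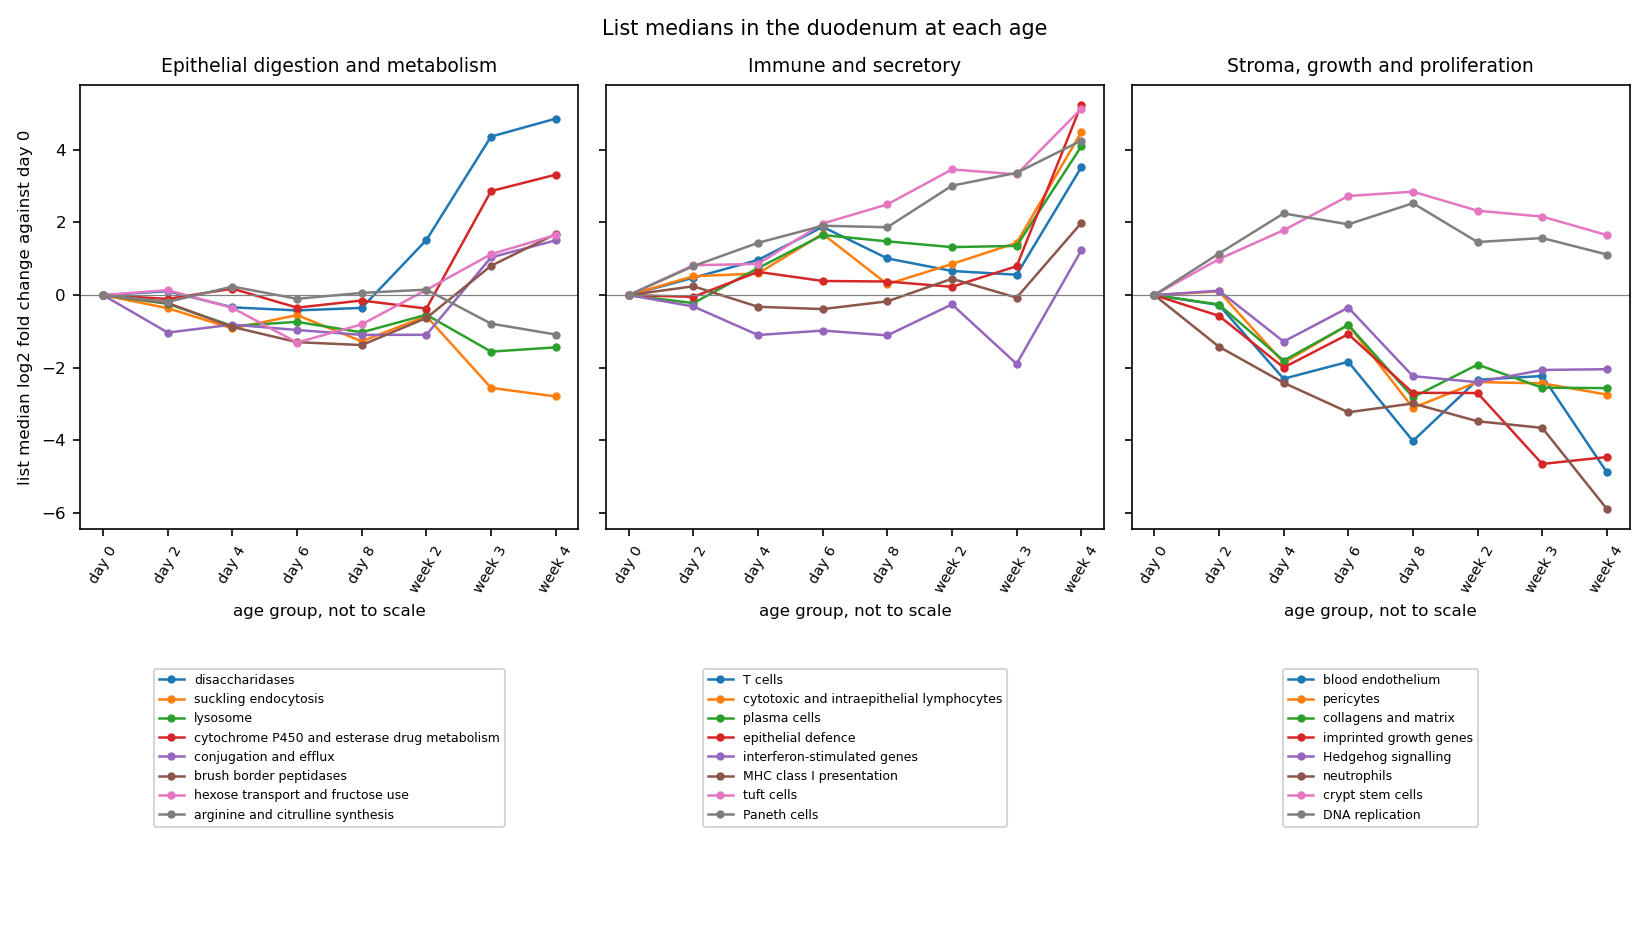
Median log2FC against duodenum day 0 of 24 lists at each age group, the ages evenly spaced and not to scale, with 3 samples per age. The P450 median rises between week 2 and week 3, from -0.37 to 2.87, and the defence median between week 3 and week 4, from 0.80 to 5.24, while the endothelial median is below 0 at every age, with low points of -4.02 at day 8 and -4.88 at week 4.

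The same contrast was made in the ileum. A test of the difference in change called 3.33% of the 20901 genes, 1.53% with the more positive change in the duodenum and 1.8% with the more negative. Conjugation and efflux had 6 of 16 genes called, all with the more positive change in the duodenum. Gsta1 rose in the duodenum and had a log2FC of -0.05 in the ileum, a difference of 3.24 ± 0.71 SE, edgeR adjusted p = 0.00812. Class II presentation had 6 of 9 genes, all with the more negative difference, such as Ciita (difference -2.50 ± 0.62 SE, edgeR adjusted p = 0.0191). Afp, the fetal serum protein alpha-fetoprotein, fell (log2FC -2.56) in the duodenum, to 50.3, 48.6 and 43.2 CPM, and had a log2FC of -8.31 in the ileum (difference 5.74 ± 0.94 SE, edgeR adjusted p = 3.83e-04). Plagl1 fell more in the duodenum, with a difference of -4.05 ± 0.76 SE, edgeR adjusted p = 0.00198. Tlr4 and Fut2, which makes the blood group H glycan, fell in the duodenum with log2FC of 1.22 and 1.38 in the ileum. For the blood endothelium, lysosome and P450 lists the interaction called 0 of 11, 1 of 24 and 2 of 17 genes. Markers of B cells had a list median of 3.96 in the duodenum and 7.45 in the ileum, and their part in the class II difference was not tested. Without day 0 samples 2 and 3 of the duodenum, fewer genes than 697 differed between the regions. Without only the 8 samples that lack a normalized column, 3146 genes differed. Against that count too, fewer differed when duodenum day 0 samples 2 and 3 were left out as well. Leaving out any one of duodenum day 0 sample 2 or 3, duodenum week 4 sample 1 or 3, ileum day 0 sample 1 or ileum week 4 sample 3 gave 251 to 393 genes, and leaving out ileum week 4 sample 1 gave 1584.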

How the data were processed

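Total RNA was sequenced from 48 samples of mouse small intestine in 16 groups. The authors deposited estimated counts per gene, given as whole numbers, and a normalized signal, those counts divided by 1 factor per sample, with no column for 8 samples. Per the submitters' processing notes, mm10, STAR 2.6.1d, Salmon 0.14.2 and DESeq2 1.30.1 were used, listed without role. The annotation release is not given in the sources used here. Gene symbols came from the deposited tables, which name 51106 of the 54532 identifiers, and positions from GENCODE M21, which holds 54409 of them. Estimated counts split reads of near-identical genes by a model, so single members of the defensin, Reg3, hemoglobin, Cyp, Ces2, H2 and immunoglobulin families are uncertain.

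Genes with enough counts (20901) were fitted with edgeR 4.0.16 (R 4.3.3, TMM scaling, quasi-likelihood test, all 16 groups, no covariate), with Benjamini-Hochberg adjustment over all of them and calls at an adjusted p under 0.05. CPM use the same scaling. Each SE was worked back from the log2 change and the F value of its quasi-likelihood test. The model did not estimate it directly, so it is approximate, above all for genes near 0 in either group. Alternatives used DESeq2 1.42.0, limma 3.58.1 on log2 of the normalized signal plus 1 or 0.1, other filters and scalings, other sample sets, a sex covariate and a replicate block. Where the text leaves out duodenum day 0 samples 2 and 3, all other samples stayed in the fit unless said otherwise. On simulated data with 200 changed genes among 20612, the test recovered 57% of 2-fold and 79% of 4-fold changes, and 2.86% of calls were false. The counts were drawn from the fitted model, and the changed genes only from those above a minimum mean count. In the data 37.5% of genes were called, so these values do not give the recovery or false calls of the comparison itself.

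Members and lists were chosen with earlier results of these data known. Named genes were each list's first gene and, in each direction, the called member that changed most, if its samples did not overlap and its log2 CPM averaged 1 or more, passing over 16 genes (Sis, Lct, Treh, Cubn, Ass1, Fcgrt, Prdm1, Tlr5, Lyz1, Reg3g, Nos2, Cd3e, Jchain, Olfm4, Lgr5 and H19). Part of these are described, and the other genes given were chosen after their values were seen. Sums over a list are sums of CPM over its members. Some members of the lists are counted but not reported here by name.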

Additional observations from a re-analysis of the deposited data

Results flagged for a closer look

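edgeR's test of the difference between the change in the duodenum and that in the ileum passed an adjusted p of 0.05 for 17 of the 144 genes named by the rule, and for 64 of the 959 list genes tested. Together with 7 list genes that were chosen after their values were seen, 24 genes are given here. The differences below are log2 changes from day 0 to week 4, duodenum minus ileum. They were more positive in the duodenum for 11 genes and more negative for 13.

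Among metabolic genes the difference was 2.53 for Apoa4, 1.73 for Fbp1, 1.09 for Plin2, 2.07 for Nr1i3, 3.24 for Gsta1 and 2.34 for Gstm3, a glutathione transferase. It was -1.91 for Xpnpep2, an aminopeptidase, and -6.25 for Slc10a2, which rose in the ileum. Krt20, a keratin of villus cells, differed by -1.36, and the glycan genes Fut2 and Fut8 by -3.20 and 1.10.

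Among immune genes the difference was -2.45 for Trac, -3.81 for Flt3, a receptor of dendritic cell precursors, -4.21 for Cpa3, -3.39 for Lcn2, -3.85 for Tlr4, -3.04 for Cd74, -2.50 for Ciita and 1.57 for Oas1a. Fetal and serum protein genes differed by -4.05 for Plagl1, -6.53 for Igf2bp1, whose duodenal week 4 samples were all 0 so that the value depends on the prior count, 5.74 for Afp and 2.71 for Serpina1c, a liver protease inhibitor. Dbp differed by 1.54.

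Part of the 24 genes were often not called over the 24 alternatives. Gstm3 was not called in 16, Cpa3 in 12, and Xpnpep2, Oas1a and Dbp in 10 each. For Flt3 it was 10 of 23. The 3 genes called in every alternative were Serpina1c, Slc10a2 and Plagl1, and none of the 24 genes reversed in any. Without duodenum day 0 samples 2 and 3, 21 of them were not called.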

How the results depend on the processing

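The 7846 genes called at week 4 against day 0 stayed within 1.5-fold under every alternative except the fit without day 0 samples 2 and 3, the libraries with both Xist and Ddx3y, which gave 4394 (1975 rises and 2419 falls). Limma on the normalized signal plus 1 gave 5797 rises. Leaving out 1 of the 6 samples gave 6421 to 7099 calls. Of 144 genes named by the rule, 97 stayed called or stayed uncalled in every alternative that tested them, up to 20 per gene. Cpa3 alone reversed, to 0.87 in both fits without day 0 samples 2 and 3.

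The difference between duodenum and ileum was less stable: 697 genes became 366 with no filter on low counts, 1205 with DESeq2, 377 with only the compared groups, 1317 without day 6 sample 3 of both regions, 3146 without the 8 samples that lack a normalized column and 84 without duodenum day 0 samples 2 and 3. Leaving out 1 sample gave 251 to 1584. The cause of these shifts was not tested.

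Same-numbered samples did not deviate together (correlations 0.0168, 0.0310 and 0.0539). With the replicate number as a block 7619 genes were called, and 548 for the difference between regions. With the sex covariate the counts were 7388 and 675. The alternative without day 0 sample 1 and week 4 sample 2 was chosen after seeing the data.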
